A study of Homo sapiens with 4 samples.

Results

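Genes of cholesterol and fatty acid synthesis were described in U2OS cells, a human osteosarcoma line, after transfection with siRNA against BRPF3. The genes were taken by name, with earlier results of these data known. The list held 29 genes, 21 of the sterol pathway and 8 of fatty acid synthesis. Each gene was represented by its brightest probe set, by the mean of the 4 arrays. The annotation used named probe sets for 25 of them, 17 sterol and 8 fatty acid genes, of 14884 named genes in all. FDFT1, LSS, CYP51A1 and SC5D were not analysed here. All 25 genes were bright enough to be tested, with a mean over the 4 arrays above the median of all probe sets (4.59 on the log2 scale), and 23 lay above the 75th percentile (6.43).

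The first group held 2 arrays of U2OS cells given BRPF3 siRNA, and the second held 2 arrays of U2OS cells given a scrambled negative control siRNA. Both groups received siRNA at 50 nM with a lipid transfection reagent, in medium with serum, and RNA was taken at 48 hours. The study's comparison concerned the transcripts that differ when BRPF3, a scaffold of histone acetyltransferase complexes, is depleted. The level of BRPF3 itself was not analysed here, so the knockdown was not checked on these arrays, and the labels give neither the siRNA sequences nor a further siRNA against BRPF3, so depletion cannot be told apart from effects of the siRNA itself. The labels call the arrays of a group biological replicates without saying how separate the cultures were, and p-values here measure array-to-array spread, which may be technical. RNA of a whole culture cannot separate fewer cells expressing a gene from less RNA per cell.

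Over the tested genes, the SD of log2 differences was 0.20 between the BRPF3 siRNA arrays and 0.17 between the control siRNA arrays, and 0.31 to 0.32 between arrays of different groups. Of 10696 tested genes, 1686 changed (15.8%), 676 rising (6.32%) and 1010 falling (9.44%), in limma's moderated test at a Benjamini-Hochberg adjusted p under 0.05. Of the changed genes 59.9% fell on the deposited values, 48.4% after quantile normalization and 49.0% after cyclic loess normalization. The median difference of all tested genes was -0.03 on the log2 scale. Markers of mesenchymal cells were present: VIM had values of 10.52 and 10.46 with BRPF3 siRNA, against 10.35 and 10.37 with control siRNA, and FN1 and RUNX2 were also above the intensity bound. COL1A1, COL1A2, SPARC and CDH2 were not analysed here. Of the osteoblast markers, SP7 was close to the bound, at 4.55 and 4.59 with BRPF3 siRNA, against 4.95 and 4.56 with control siRNA. IBSP lay under the bound, and ALPL and BGLAP were not analysed here. Of named markers of other cells, 0 of 1 endothelial (PECAM1), 1 of 3 adipocyte (PLIN1), 2 of 3 hepatocyte (APOA1 and TTR, with ALB under the bound), 1 of 1 leukocyte (CD68) and 3 of 3 epithelial markers lay above the bound, and none of these passed limma's adjusted test except KRT18. The summed linear level of the 3 epithelial markers was 1307 to 1386 with BRPF3 siRNA and 1663 to 1713 with control siRNA. KRT18 fell by 0.49 ± 0.09 (limma, adjusted p = 0.0231), while EPCAM differed by 0.27 and KRT8 by -0.05 without passing, and their part in the results below was not tested.

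Cells build cholesterol from acetyl-CoA. The mevalonate segment makes farnesyl diphosphate, which is joined to squalene, and squalene is closed into lanosterol and trimmed to cholesterol by a chain of membrane enzymes. Fatty acid synthesis starts from the same acetyl-CoA, made by ACLY, and passes through malonyl-CoA, palmitate, elongation and desaturation. Both branches are known targets of the SREBP transcription factors, with SREBP2 (gene SREBF2) acting mainly on sterol genes and SREBP1 (SREBF1) mainly on fatty acid genes. SREBPs are held in the endoplasmic reticulum by INSIG proteins when sterols are plentiful, and NF-Y, which binds the sequence CCAAT, and Sp1, which binds GC-rich boxes, are known to act beside them at many of these promoters.

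Promoter windows are shown for the 3 members that fell (MSMO1, NSDHL and HMGCS1), for SCD, the fatty acid gene with the smallest p among those with a window, and for SREBF2, the 1 member whose window held the letters of the classical sterol regulatory element. Each runs from 250 bases before to 50 bases after the start of the gene, read 5′ to 3′ on the gene's strand, from RefSeq on GRCh38.p14, with CCAAT or its reverse complement ATTGG, and the sterol regulatory element, in capitals.
MSMO1 (chr4:165327419-165327718, plus strand): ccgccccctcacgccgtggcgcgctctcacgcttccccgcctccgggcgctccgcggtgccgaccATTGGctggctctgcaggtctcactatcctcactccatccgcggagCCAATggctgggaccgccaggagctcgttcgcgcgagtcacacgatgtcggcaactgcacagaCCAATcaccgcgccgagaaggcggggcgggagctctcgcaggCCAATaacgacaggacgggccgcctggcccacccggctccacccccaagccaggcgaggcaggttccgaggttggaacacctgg
NSDHL (chrX:152830813-152831112, plus strand): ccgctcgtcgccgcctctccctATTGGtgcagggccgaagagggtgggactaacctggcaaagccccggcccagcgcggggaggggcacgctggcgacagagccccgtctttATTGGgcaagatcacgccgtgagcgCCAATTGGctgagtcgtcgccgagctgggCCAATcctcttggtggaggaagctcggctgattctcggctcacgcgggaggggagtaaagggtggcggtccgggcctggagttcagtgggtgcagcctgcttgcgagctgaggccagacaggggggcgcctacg
HMGCS1 (chr5:43313363-43313662, minus strand): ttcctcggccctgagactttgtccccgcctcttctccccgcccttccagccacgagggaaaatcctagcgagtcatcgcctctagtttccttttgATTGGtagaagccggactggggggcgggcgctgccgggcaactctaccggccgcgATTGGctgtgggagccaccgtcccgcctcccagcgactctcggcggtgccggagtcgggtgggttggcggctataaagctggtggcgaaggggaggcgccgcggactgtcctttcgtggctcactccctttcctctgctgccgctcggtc
SCD (chr10:100346983-100347282, plus strand): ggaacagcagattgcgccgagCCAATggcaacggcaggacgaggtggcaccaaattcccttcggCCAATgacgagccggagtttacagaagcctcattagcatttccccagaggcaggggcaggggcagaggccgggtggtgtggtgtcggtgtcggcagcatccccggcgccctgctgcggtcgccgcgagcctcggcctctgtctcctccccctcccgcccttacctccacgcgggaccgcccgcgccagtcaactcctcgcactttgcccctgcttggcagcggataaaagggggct
SREBF2 (chr22:41832855-41833154, plus strand): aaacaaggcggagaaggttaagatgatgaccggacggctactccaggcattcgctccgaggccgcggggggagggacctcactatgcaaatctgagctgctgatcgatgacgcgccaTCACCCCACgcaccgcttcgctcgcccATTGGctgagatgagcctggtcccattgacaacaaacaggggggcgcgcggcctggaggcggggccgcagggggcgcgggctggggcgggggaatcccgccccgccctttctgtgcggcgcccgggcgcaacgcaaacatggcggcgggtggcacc

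The windows of the fallen genes held 4 CCAAT boxes for MSMO1, 5 for NSDHL and 2 for HMGCS1, counted on both strands; in NSDHL a forward and a reverse box overlap. SCD held 2 and SREBF2 held 1. Among the 22 tested members with a window (ACAT2, SQLE and FASN had none in the table), a CCAAT box lay in 13 of 15 sterol windows and in 2 of 7 fatty acid windows, those of ACLY and SCD, against 35.7% of all 27305 promoter windows and 36.1% of the 8253 windows of tested genes. A GC box, GGGCGG on either strand, lay in 14 of 15 sterol and 6 of 7 fatty acid windows, against 44.6% of all windows and 68.5% of those of tested genes. The sterol regulatory element, searched as TCACNCCAC on both strands, lay in 1 member window, that of SREBF2, against 1.15% of all windows and 1.08% of those of tested genes. Variants of these letters, and sequence outside the windows, were not searched. The palindromic E-box CACGTG lay in 1 tested member's window, that of INSIG1, against 7.43% of all windows and 9.85% of those of tested genes. These matches describe the sequence only, and CCAAT boxes were common to sterol members that fell and sterol members that did not pass the test.

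After BRPF3 siRNA, 3 of the 25 members fell, 0 rose and 22 did not pass the test. The 3 were sterol enzymes: MSMO1, the methylsterol monooxygenase, NSDHL, the sterol dehydrogenase that acts on its product, and HMGCS1, which makes HMG-CoA at the entry to the mevalonate segment. Sizes were modest, 1.41-fold, 1.33-fold and 1.25-fold lower. The share of members that fell, 12.0%, lay near the 9.44% of all tested genes that fell, so the count of calls does not set the members apart. At an unadjusted p under 0.05 in limma there were 10 of the 25, against 34.6% of all tested genes. The difference was below 0 for 22 of 25 members, against 55.1% of all tested genes, and for 19 of 25 after quantile or cyclic loess normalization, where 50.0% and 50.3% of all genes were below 0. The list was chosen with earlier results of these data known, which limits every comparison of members with all tested genes.

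**Figure D1:**
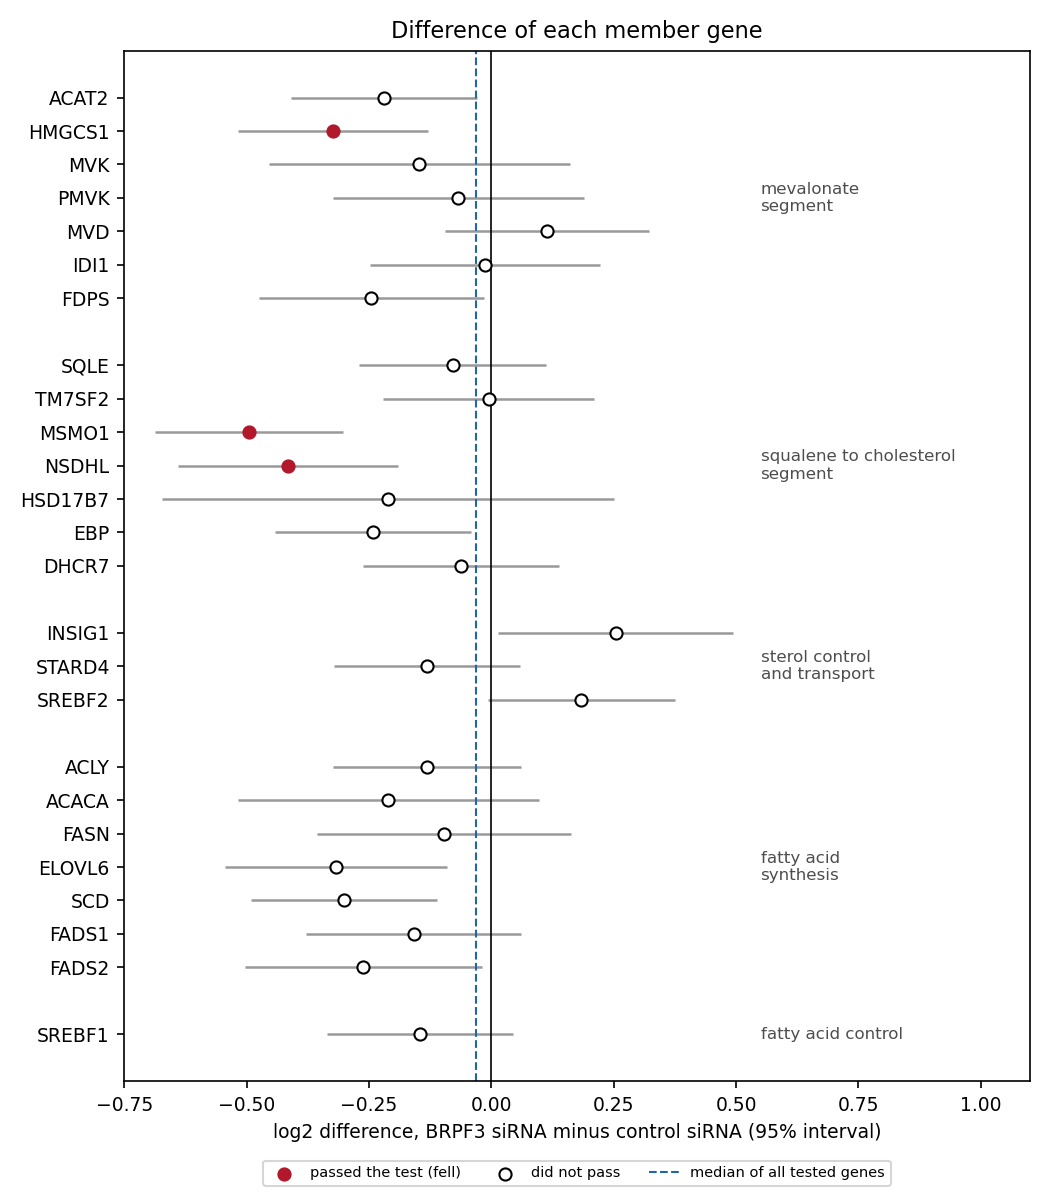
Log2 difference, BRPF3 siRNA minus control siRNA, of the 25 member genes by role, with limma's 95% interval; filled points passed the test and the dashed line is the median of all tested genes. MSMO1, NSDHL and HMGCS1 are the filled points, and INSIG1, SREBF2 and MVD are the 3 genes right of 0.

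MSMO1 had log2 values of 9.74 and 9.76 with BRPF3 siRNA, against 10.22 and 10.27 with control siRNA. The arrays of the groups did not overlap, as was the case for 35.9% of all tested genes in this direction. The log2 difference was -0.50 ± 0.08 (moderated SE from limma with n = 2 arrays in each group, and likewise for later differences), with an adjusted p of 0.0185, and it stood at the 4.86 percentile of all tested genes. NSDHL had values of 9.33 and 9.21 with BRPF3 siRNA, against 9.63 and 9.75 with control siRNA, again without overlap. Its difference was -0.42 ± 0.09 (limma, adjusted p = 0.0369). MSMO1 and NSDHL act in turn in C4 demethylation, the step in which the extra methyl groups are removed from the sterol ring.

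HSD17B7, the ketosteroid reductase that completes C4 demethylation, was dim and uneven, with 4.37 and 4.76 with BRPF3 siRNA, against 4.56 and 4.99 with control siRNA. Its arrays overlapped, its BRPF3 siRNA mean of 4.56 lay under the intensity bound, and its difference of -0.21 ± 0.19 did not pass (limma, adjusted p = 0.465). The array also carries a probe set for HSD17B7P2, a pseudogene with a sequence close to that of HSD17B7, which is no member and was looked at after its values were seen. HSD17B7P2 had 6.95 and 6.85 with BRPF3 siRNA, against 7.27 and 7.37 with control siRNA, and fell by 0.42 ± 0.09 (limma, adjusted p = 0.0322). How far each gene contributes to either signal is uncertain. ERG28, the scaffold that holds the C4 demethylation enzymes together, differed by -0.14 (limma, adjusted p = 0.286).

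HMGCS1 had 9.63 and 9.60 with BRPF3 siRNA, against 9.91 and 9.97 with control siRNA, and fell by 0.32 ± 0.08 (limma, adjusted p = 0.0458). The groups did not overlap. The 3 falls were close to the threshold: with the replicate number as a block, MSMO1 passed, while NSDHL (adjusted p = 0.0523) and HMGCS1 (adjusted p = 0.0586) did not. After quantile normalization MSMO1 was the 1 member that passed, and NSDHL had an adjusted p of 0.0645 and HMGCS1 of 0.0982. Over all 12 alternatives adjusted p ran from 0.00034 to 0.117 for MSMO1, from 0.00269 to 0.183 for NSDHL and from 0.00347 to 0.214 for HMGCS1. With an array left out, the difference ran from -0.52 to -0.47 for MSMO1, from -0.48 to -0.35 for NSDHL and from -0.36 to -0.29 for HMGCS1. Such fits lost most calls, of members and of all tested genes alike.

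The other members of the mevalonate segment did not pass. ACAT2, the thiolase that makes acetoacetyl-CoA, had 8.57 on both BRPF3 siRNA arrays, against 8.81 and 8.77 with control siRNA, a difference of -0.22 ± 0.08 (limma, adjusted p = 0.107). FDPS, the farnesyl diphosphate synthase, had 6.41 and 6.43 with BRPF3 siRNA, against 6.57 and 6.76 with control siRNA (difference -0.25 ± 0.09), and its other probe set differed by -0.13. In these 2 genes the groups did not overlap. The kinases MVK (-0.15 ± 0.12) and PMVK (-0.07 ± 0.10) and the isomerase IDI1 (-0.01 ± 0.10) had overlapping arrays. MVD, the decarboxylase, was the 1 gene of the segment above 0, by 0.11 ± 0.08 with a 95% interval of -0.09 to 0.32.

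Among the other enzymes after squalene, EBP, the sterol isomerase, had 8.46 and 8.39 with BRPF3 siRNA, against 8.64 and 8.71 with control siRNA, with no overlap (difference -0.24 ± 0.08; limma, adjusted p = 0.0972). SQLE, the squalene epoxidase and a rate-limiting enzyme of the pathway, differed by -0.08 ± 0.08 with a 95% interval of -0.27 to 0.11. DHCR7, which carries out a last reduction to cholesterol, differed by -0.06 ± 0.08 (interval -0.26 to 0.14), and TM7SF2, a sterol reductase, by -0.01 ± 0.09 (interval -0.22 to 0.21). All 7 tested enzymes of this segment were below 0 on the deposited values, with a median of -0.21, but SQLE and DHCR7 were above 0 after quantile and cyclic loess normalization. For SQLE and DHCR7 the intervals leave out a fall as large as that measured for MSMO1.

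The regulators INSIG1 and SREBF2 were measured above 0, as MVD was. INSIG1, which retains SREBPs in the endoplasmic reticulum and is itself a known SREBP target, had 8.69 and 8.90 with BRPF3 siRNA, against 8.54 and 8.54 with control siRNA. Its difference of 0.25 ± 0.10 did not pass (limma, adjusted p = 0.129; range 0.0491 to 0.337 over the alternatives). SREBF2 had 8.78 and 8.83 with BRPF3 siRNA, against 8.62 and 8.62 with control siRNA, a difference of 0.18 ± 0.08 (limma, adjusted p = 0.156). In both genes each BRPF3 siRNA array was above each control array, as in 27.3% of all tested genes. STARD4, a cytosolic sterol carrier and also a known SREBP target, differed by -0.13 ± 0.08 (limma, adjusted p = 0.280).

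**Figure D2:**
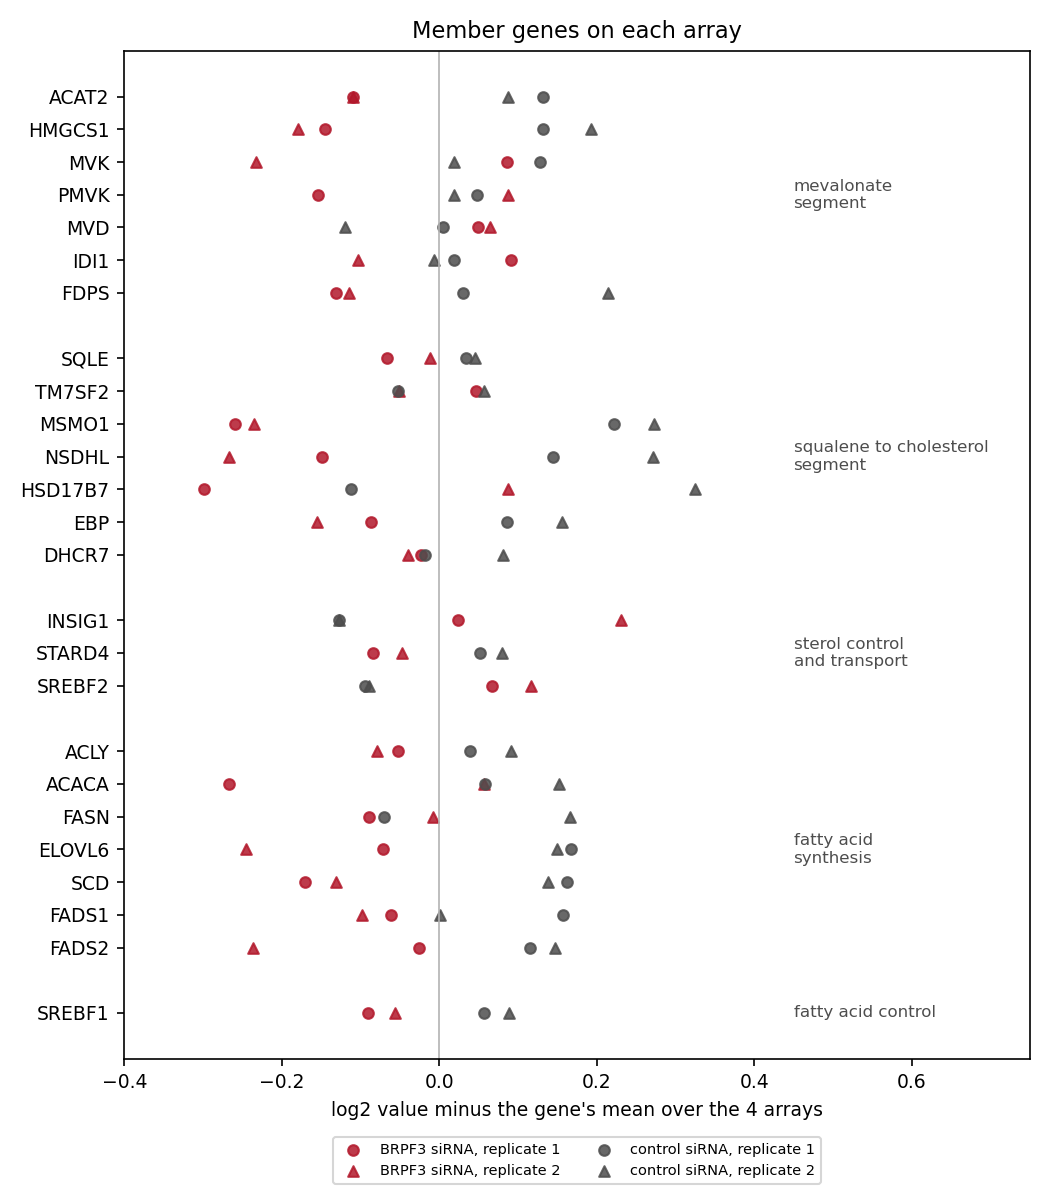
Log2 value of each member gene on each of the 4 arrays, minus that gene's mean over the 4 arrays. For 16 members both BRPF3 siRNA arrays lie left of both control siRNA arrays, against 35.9% of all tested genes. For 3 (MVD, INSIG1 and SREBF2) both BRPF3 siRNA arrays lie right, against 27.3% of all tested genes, and for 6 the groups overlap.

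In the fatty acid branch 0 of 8 genes passed the test, 3 had an unadjusted p under 0.05 in limma, near the 34.6% of all tested genes, and all 8 were below 0, against 55.1% of all tested genes. The 8 were also below 0 after quantile or cyclic loess normalization. SCD, the desaturase that makes oleate, had 11.52 and 11.56 with BRPF3 siRNA, against 11.85 and 11.83 with control siRNA. The groups did not overlap and the difference was -0.30 ± 0.08 (limma, adjusted p = 0.0518; range 0.000872 to 0.221 over the alternatives). A second, dimmer probe set of SCD had 5.85 and 5.90 with BRPF3 siRNA, against 6.46 and 6.60 with control siRNA, a larger difference of -0.65, and with the mean of both probe sets SCD passed (difference -0.48; limma, adjusted p = 0.0202). ELOVL6, which lengthens palmitate, had 7.92 and 7.74 with BRPF3 siRNA, against 8.16 and 8.14 with control siRNA, again without overlap (difference -0.32 ± 0.09; limma, adjusted p = 0.0691).

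FADS2 and FADS1, neighbouring desaturase genes of polyunsaturated fatty acids, differed by -0.26 ± 0.10 and -0.16 ± 0.09 without overlap between groups. ACLY, which supplies cytosolic acetyl-CoA, had 10.54 and 10.51 with BRPF3 siRNA, against 10.63 and 10.68 with control siRNA (difference -0.13 ± 0.08). ACACA, the acetyl-CoA carboxylase, differed by -0.21 ± 0.12, but its BRPF3 siRNA arrays were far apart, at 8.75 and 9.08, against 9.08 and 9.17 with control siRNA. FASN, the fatty acid synthase, was the 1 gene of the branch with overlapping groups (difference -0.10 ± 0.11, interval -0.36 to 0.16). SREBF1, the regulator of the branch, had 7.38 and 7.41 with BRPF3 siRNA, against 7.52 and 7.55 with control siRNA, a difference of -0.15 ± 0.08 (limma, adjusted p = 0.240). SREBF1 and SREBF2 were thus measured on opposite sides of 0, neither past the test.

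Side by side, the sterol branch held the 3 calls, 17.6% of its tested genes, where 9.44% of all tested genes fell. With 17 sterol and 8 fatty acid genes, neither 3 calls nor 0 calls sets a branch apart from this share. SCD was close to the threshold (limma, adjusted p = 0.0518) and passed with the mean of its probe sets. With the filter at the 75th percentile of intensity, 20.7% of tested genes fell, among them 5 sterol and 2 fatty acid members. The sterol genes, more in number, had the wider range, from -0.50 for MSMO1 to 0.25 for INSIG1. The fatty acid genes ran from -0.32 for ELOVL6 to -0.10 for FASN. Groups did not overlap, with BRPF3 siRNA lower, for 9 of 17 sterol genes and 7 of 8 fatty acid genes, against 35.9% of all tested genes. That share includes genes dimmer than most members, and the share among bright genes alone was not computed. The median difference was -0.13 for the sterol genes and -0.18 for the fatty acid genes, against -0.03 for all tested genes and -0.05 for the 6407 tested genes above the 75th percentile of intensity, where most members lie. After quantile normalization the medians were -0.05 for the sterol genes and -0.13 for the fatty acid genes. The sterol genes include 3 control and transport genes, with a median of 0.18 on the deposited values. There the median was -0.15 for the mevalonate segment, -0.21 for the squalene to cholesterol segment and -0.21 for the 7 fatty acid synthesis genes.

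As a mean deviation from each gene's level over the 4 arrays, the sterol genes stood at -0.067 and -0.057 with BRPF3 siRNA, against 0.037 and 0.087 with control siRNA. The fatty acid genes stood at -0.103 and -0.100 with BRPF3 siRNA, against 0.086 and 0.117 with control siRNA. In both branches the arrays of the groups were apart. The median of the sterol genes was above that of the fatty acid genes by 0.05, and by 0.0098 to 0.12 under the 12 alternatives. This gap is smaller than the width of the 95% interval of any single member, which does not measure the spread of a branch median. The mean deviation of the sterol genes minus that of the fatty acid genes was 0.036 and 0.043 with BRPF3 siRNA. With control siRNA it was -0.049 and -0.030. Neither gap was tested.

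**Figure D3:**
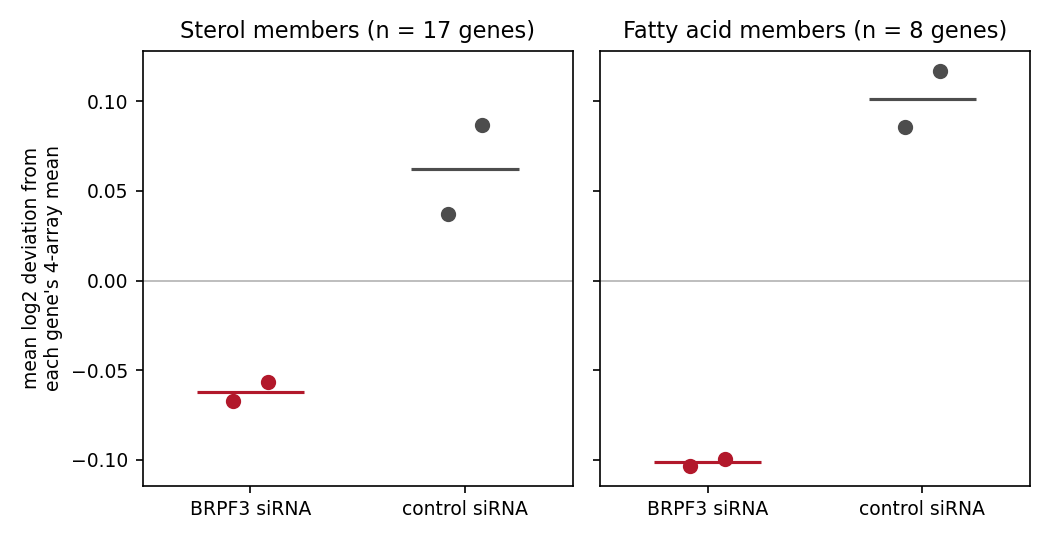
Mean log2 deviation of the 17 sterol and 8 fatty acid genes from each gene's mean over the 4 arrays, by array; points are arrays and lines are group means. Both branches lie below 0 with BRPF3 siRNA and above 0 with control siRNA, the fatty acid genes slightly farther apart.

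Among neighbouring lipid genes, 6 of 53 tested rose and 6 fell (11.3% each way), against 6.32% and 9.44% of all tested genes. Of 3 other sterol synthesis genes, FAXDC2, a hydroxylase of the protein family of MSMO1, rose by 0.58 ± 0.08 (limma, adjusted p = 0.0153), with 5.12 and 5.23 with BRPF3 siRNA, against 4.59 and 4.59 with control siRNA, values close to the intensity bound. Of 6 genes of SREBP processing and sterol sensing 0 rose and 2 fell. INSIG2, the relative of INSIG1, had 6.41 and 6.58 with BRPF3 siRNA, against 6.95 and 7.08 with control siRNA, and fell by 0.52 ± 0.10 (limma, adjusted p = 0.0265). RNF145, a ubiquitin ligase of the endoplasmic reticulum, fell by 0.60 ± 0.08 (limma, adjusted p = 0.0153). SCAP, the escort of SREBPs, differed by -0.04 and did not pass. MBTPS1 and MBTPS2 were not analysed here.

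Of 12 genes of cholesterol uptake, trafficking and efflux 1 rose and 2 fell, where 6.32% of all tested genes rose and 9.44% fell. VLDLR, a lipoprotein receptor, had 8.30 and 8.56 with BRPF3 siRNA, against 7.68 and 7.84 with control siRNA, and rose by 0.67 ± 0.12 (limma, adjusted p = 0.0231). STARD3, a cholesterol transfer protein of late endosomes, had 7.69 and 7.63 with BRPF3 siRNA, against 8.35 and 8.31 with control siRNA, and fell by 0.67 ± 0.08 (limma, adjusted p = 0.0116). GRAMD1B, a carrier of cholesterol from the plasma membrane to the endoplasmic reticulum, fell by 0.34 ± 0.08 (limma, adjusted p = 0.0483, and 0.0518 with the replicate block). NPC1 and ABCA1 were not analysed here.

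Of 17 other genes of fatty acid and glycerolipid synthesis 3 rose and 1 fell, where 6.32% of all tested genes rose and 9.44% fell. LPIN2, a phosphatidate phosphatase, had 8.83 and 8.94 with BRPF3 siRNA, against 8.12 and 8.14 with control siRNA, and rose 1.69-fold (0.75 ± 0.08; limma, adjusted p = 0.00985). MID1IP1, which promotes the assembly of acetyl-CoA carboxylase, rose by 0.57 ± 0.12 and by 0.31 with the mean of its probe sets, where it did not pass. ELOVL7, a further elongase, rose by 0.53 ± 0.09, while PNPLA3, a lipid droplet protein, fell by 0.42 ± 0.09. Of 11 genes of fatty acid oxidation 1 rose, the isomerase ECI1 (0.35 ± 0.09), and 1 fell, the thiolase ACAA2 (-0.33 ± 0.08; limma, adjusted p = 0.0424, and 0.0547 with the replicate block). None of 4 genes of isoprenoid use passed limma's adjusted test, and 2 had an unadjusted p under 0.05, against 34.6% of all tested genes. All 4 were below 0, against 55.1% of all tested genes. The smallest p was that of DPAGT1, the enzyme that begins N-glycan assembly on dolichol (-0.29 ± 0.08, adjusted p = 0.0575 in limma). Without control siRNA replicate 1 or 2 none of the 12 changed genes passed, as was so for all genes tested.

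**Figure D4:**
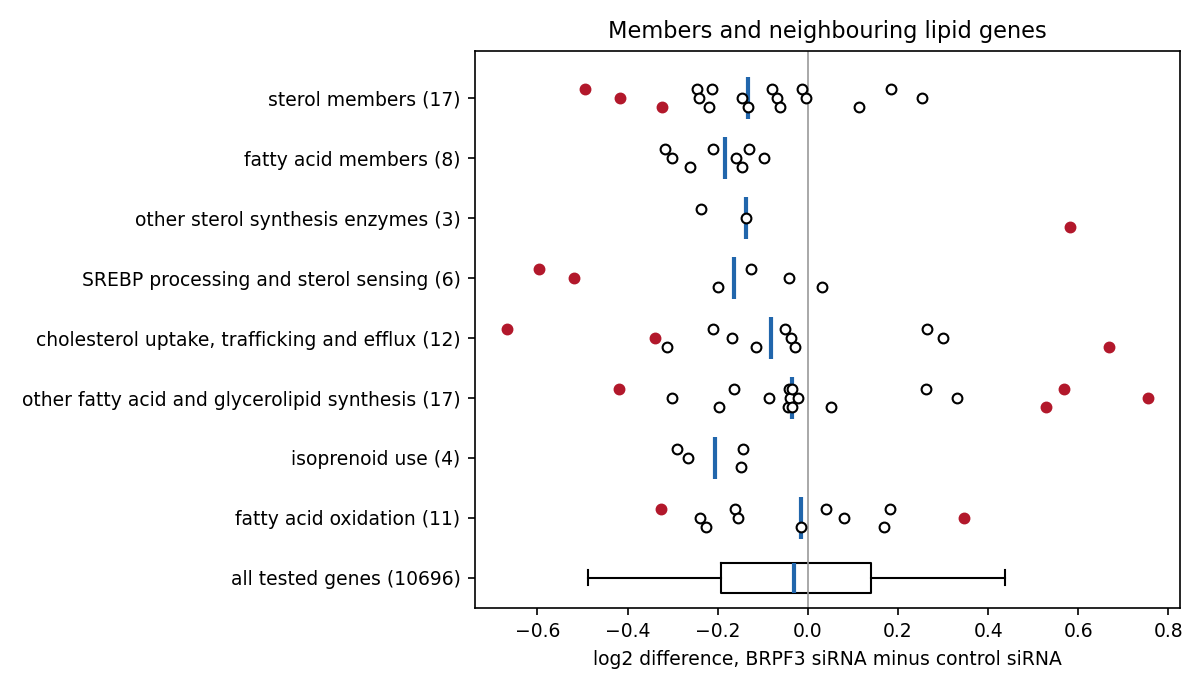
Log2 difference, BRPF3 siRNA minus control siRNA, of the sterol and fatty acid members and of 6 lists of neighbouring lipid genes, with the number tested in brackets; filled points passed the test and vertical bars are medians. The box holds the middle of all tested genes, from -0.19 to 0.14, with whiskers at the percentiles 5 and 95 (-0.49 and 0.44), and several neighbouring genes lie farther out than any member.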

How the data were processed

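Transcripts were measured on Affymetrix whole-transcript arrays, 1 per sample, per the labels' protocols. The deposited table gives log2 values of 53617 probe sets, which the authors made with RMA per the submitters' processing notes (version and settings: not given in the sources used here). RMA removes shifts common to all transcripts and compresses differences of dim probe sets. A platform annotation named 16098 probe sets, standing for 14884 genes, and the others were not used. Genes were tested if their mean reached 4.59, the median over probe sets, which 10696 did. Differences were tested in R 4.3.3 with limma 3.58.1 (lmFit, eBayes, two-sided, Benjamini-Hochberg over all 10696 genes, called at an adjusted p under 0.05), with 2 residual and 3.81 prior degrees of freedom. An exact permutation of 2 against 2 arrays cannot reach that threshold. In simulated data of 10696 genes with 100 changed at each fold, the limma test recovered 38.7% of 1.5-fold and 90.4% of 2-fold changes. The noise there was drawn from the variances that limma's own fit assumes, alike at all intensities. Far fewer genes were changed there than were called here, which makes the adjusted threshold stricter. For both reasons these rates do not carry over directly. Precision is limited by the number of arrays.

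The series text places the samples numbered 2 in 1 replicate set. Deviations of same-numbered arrays correlated at 0.14 across genes, and the replicate block was an alternative, beside 2 normalizations, 2 filters, the mean of probe sets, intensity trend, robust fitting and leaving out each array. Every member was named, with those neighbouring genes that passed or, where none did in a list, the 1 with the smallest p. The members and lists were chosen with earlier results of these data known. Other genes named as not tested or not passing (such as ERG28 and SCAP) were named after their values were seen. Promoter windows came from RefSeq, GRCh38.p14.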

Additional observations from a re-analysis of the deposited data

How the results depend on the processing

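The number of changed genes, 1686, was 409 without an intensity filter, 2645 with an intensity trend and 0 to 791 with an array left out. Of the members 3 fell, against 1 after quantile normalization, 1 after cyclic loess normalization, 0 without an intensity filter, 7 with the filter at the 75th percentile, 7 with an intensity trend, 1 with the replicate block and 0 to 1 with an array left out. For sterol members these counts were 1, 1, 0, 5, 5, 1 and 0 to 1. Fatty acid members fell in 2 cases with the 75th percentile filter, 2 with an intensity trend and 1 with the mean of all probe sets. With an intensity trend 1 member, INSIG1, rose. The stricter filter and the trend added ACAT2, EBP, ELOVL6 and SCD to the 3 fallen genes. The share of all tested genes that fell, 9.44% in the main fit, moved with the setting too. This share was 20.7% with the filter at the 75th percentile, 15.04% with an intensity trend and 1.505% without an intensity filter. After quantile and cyclic loess normalization it was 6.71% and 6.88%, and with the replicate block 8.704%. Whether the member counts moved more than this share was not tested. The median difference of sterol members was -0.049 after quantile and -0.055 after cyclic loess normalization, and -0.15 to -0.082 with an array left out; that of fatty acid members was -0.13 after quantile and -0.12 after cyclic loess normalization, and -0.24 to -0.16 with an array left out.

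Members that did not pass and turned sign were IDI1 (0.0026 after quantile and 0.0073 after cyclic loess normalization, -0.11 to 0.085 with an array left out), DHCR7 (0.029 after quantile and 0.017 after cyclic loess normalization), SQLE (0.013 after quantile and 0.0080 after cyclic loess normalization), and, with an array left out, MVK (-0.31 to 0.012), PMVK (-0.19 to 0.053), TM7SF2 (-0.060 to 0.050), FASN (-0.21 to 0.021) and HSD17B7 (-0.43 to 0.0066). The replicate block ended the calls of NSDHL, HMGCS1, GRAMD1B and ACAA2 and no other call of a gene named here. The causes of these moves were not tested. Where a control array was left out, the remaining one was taken to vary as much as the BRPF3 siRNA arrays do. Fewer genes pass without the filter, where more and dimmer genes are tested. Differences of HSD17B7 and FAXDC2 are limited by signal close to background.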
